A study of Gallus gallus with 4 samples.

Results

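The first measured response to Arp6 shut-off in chicken DT40 cells was taken as the array of day 2 set against the array of day 0, which are 2 of the 4 arrays in the series. DT40 is a B cell line from a chicken bursal lymphoma. In the cells used here exons 6 to 11 of the ARP6 gene (symbol ACTR6) had been replaced by cassettes for histidinol or puromycin resistance, driven by the beta-actin promoter, and Arp6 came from a transgene that tetracycline turns off. The day 2 culture had tetracycline at 2 ug/ml for 2 days, and the day 0 culture of the same conditional knockout cells had none. Further arrays at days 4 and 6 came from longer tetracycline treatment. Poly-A RNA was measured on Affymetrix GeneChip Chicken arrays. Each day has a single array, which leaves no test between days, and all values below describe these arrays. No array without tetracycline was taken at day 2, so loss of Arp6, tetracycline and time in culture cannot be told apart.

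Arp6 is an actin-related protein of the nucleus and a subunit of the SRCAP complex, which exchanges histone H2A for the variant H2A.Z in nucleosomes. ATF4 is a transcription factor whose translation increases when the kinases of the integrated stress response phosphorylate eIF2 alpha, and its known targets import and make amino acids, charge tRNAs and break down glutathione. B cells are held in their lineage by transcription factors such as PAX5, SPI1 (PU.1) and IRF8, and they signal through an antigen receptor with the CD79 chains and the kinases LYN, SYK and BTK.

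Signals are in the units of the deposited intensities after each array was brought to the same median, and 8026 genes passed a filter on dim probe sets. A difference of at least 2-fold between the day 2 and day 0 signals was the threshold for calling a gene higher or lower, and a signal under an array's background (25.02 at day 2 and 24.6 at day 0, from unspiked control probe sets) gives only a lower bound. Of the 8 B cell genes chosen to check the line, 5 were among the genes analysed and all 5 were above background on both arrays. CD79B, a chain of the antigen receptor, had 1581 units at day 2 and 2051 at day 0. The ratio of 3′ to 5′ signal, a sign of RNA quality, was 1.65 at day 2 and 2.07 at day 0 for beta-actin, 1.47 and 1.37 for EF1a, and 0.872 and 0.937 for GAPDH. The median log2 ratio of all genes was -0.01, with quartiles of -0.25 and 0.20.

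ACTR6 itself had the largest difference of any gene at day 2. Its brighter probe set had 318 units at day 2, against 7002 at day 0, which is 22.0-fold lower. The other probe set had 4.32 units at day 2, below background, against 7086 at day 0, which is at least 283-fold lower. These levels hardly moved afterwards, at 331 and 383 units for the brighter probe set at days 4 and 6. Where the probes lie relative to the replaced exons was not determined, and the day 0 level includes the transgene.

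Across the array 194 genes were higher at day 2 (2.42% of 8026) and 238 were lower (2.97%). These calls use signals raised to a floor of 19.4 units, which lies under the background. Of them, 84 higher genes were below background at day 0 and 105 lower genes were below background at day 2. Against the background level itself, 54 of the 84 and 68 of the 105 kept a bound of at least 2-fold, and the other 30 and 37 had a bound under it. With both signals above background, 110 genes were higher (1.46% of 7531) and 133 lower (1.77%). Most differences were in dim genes. Past 2-fold in either direction were 5.38% of all genes and 3.23% of those above background on both days. When the genes were ranked by signal and split into 4 equal groups, the share was 16.6% in the dimmest group, then 3.69% and 0.748%, and 0.448% in the brightest. The median absolute log2 ratio was 0.48 in the dimmest group and 0.13 in the brightest. In the deposited values without scaling the median gene was at -0.17, and 26.7% of the 2-fold genes were higher ones, against 44.9% with scaling.

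**Figure D1:**
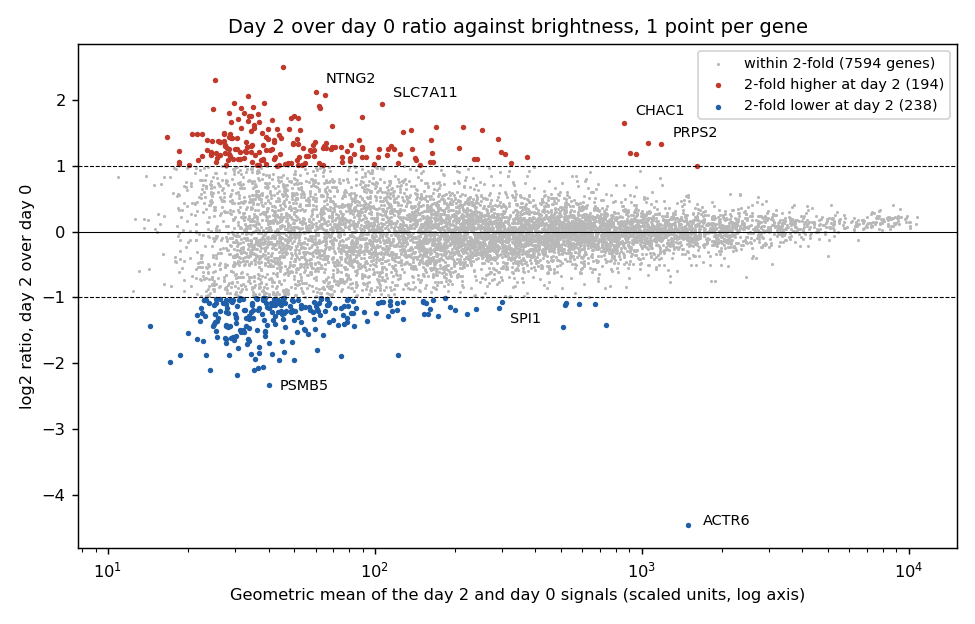
Log2 ratio of day 2 over day 0 for each of 8026 genes, against the geometric mean of its day 2 and day 0 signals on a log axis. Red points are the 194 genes at least 2-fold higher at day 2, blue points the 238 at least 2-fold lower, dashed lines mark 2-fold, and the spread of the grey points narrows as signal grows, with ACTR6 far below every other gene.

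Genes of the amino acid response driven by ATF4 had the highest median of any list at day 2. Of 50 listed genes 39 were on the array and 32 were analysed. Of these, 6 were 2-fold higher and 0 lower, 15 were 1.5-fold higher (against 7.53% of all genes), and 31 of 32 lay above 0, where 48.5% of all genes did. Their median log2 ratio was 0.57, against -0.01 for all genes. The class was also bright, with a median signal of 908 units, where 2-fold differences were rare. Genes with a mean of at least 1000 units outside the ribosomal proteins had a median of 0.046.

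CHAC1, an enzyme that breaks down glutathione, had 1523 units at day 2, against 484 at day 0, a 3.15-fold difference. It had 1612 units at day 4 and 5197 at day 6, so day 4 was close to day 2 and day 6 far above it. PSPH, the last enzyme of serine synthesis, had 1685 units at day 2, against 660 at day 0, and 1806 and 2421 at days 4 and 6. ALDH18A1, which makes the precursor of proline, had 1426 units at day 2, against 633 at day 0, and stood higher still at days 4 and 6 (1883 and 3106 units). GPT2, the mitochondrial alanine aminotransferase, had 119 units at day 2, against a dim 32.5 at day 0, a 3.66-fold difference. STC2, a secreted stress-response glycoprotein, had 70.5 units at day 2 and lay below background at day 0, at least 2.87-fold higher, but a second probe set gave a log2 ratio of 0.39. With the filter on days 2 and 0 alone, STC2 stood at 0.39, so its 2-fold call rests on the later arrays passing its probe set.

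SLC7A11, the cystine and glutamate exchanger that feeds glutathione synthesis, was 3.84-fold higher on the probe set used. That probe set had 208 units at day 2, against 54.2 at day 0. The second probe set of SLC7A11 had 129 units at day 2, against 119 at day 0, so the 2 probe sets gave different answers. The one used was brighter over the 4 arrays but dimmer at day 0, so its choice depends in part on the higher signals after day 0. Members short of 2-fold were chosen for mention after their values were seen. ATF4 itself had 3448 units at day 2, against 2492 at day 0 (log2 ratio 0.47, second probe set 0.55). ASNS, which makes asparagine, had 1527 and 931 units at day 2 and day 0 (log2 ratio 0.71). SLC7A5, a carrier of large neutral amino acids, had 1355 units at day 2, against 715 at day 0, with a log2 ratio of 0.92 and 0.98 on its second probe set.

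Second probe sets, which the choice of one probe set per gene did not use, were available for 15 of the 32 genes. Of these, 13 lay above 0 (against 53.4% of all second probe sets), with a median of 0.52. On later arrays the class median was 0.71 at day 4 and 1.07 at day 6, and 29 of 32 genes lay above 0 on all of days 2, 4 and 6 (27.7% of all genes did). All of these ratios share the day 0 array. Members 2-fold higher numbered 6, 11 and 17 of 32 on the arrays of days 2, 4 and 6, while the share of all genes was 2.42%, 5.77% and 8.48%.

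Related metabolic classes moved less. PSPH, PSAT1, CTH, WARS and SLC7A11, named below in these classes, are also members of the ATF4 list. Cytoplasmic aminoacyl-tRNA synthetases, which load tRNAs with amino acids and in part belong to the list above, had 0 of 18 genes past 2-fold, 16 above 0 and a median of 0.25. The tryptophan enzyme WARS had the largest ratio among them, 1554 units at day 2 and 884 at day 0. The ATF4 list holds LARS, NARS, AARS1, EPRS, SARS1, TARS, IARS, CARS, GARS and WARS. The synthetase result therefore repeats many of the same genes. Serine and one-carbon enzymes had a median of 0.11 over 13 genes, which turned to -0.05 in unscaled values. PSPH was the only one past 2-fold, and PSAT1, one step before it in serine synthesis, had 734 units at day 2, against 409 at day 0. Among 13 methionine and transsulfuration enzymes MAT1A, a methionine adenosyltransferase known from liver, was 2.90-fold higher (89.1 units at day 2 and 30.7 at day 0), and CTH, which makes cysteine, had 878 units at day 2, against 467 at day 0. In branched-chain amino acid breakdown BCKDHA was at least 3.30-fold higher, from a day 0 signal below background, while the median of the 16 genes was -0.03.

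IDH1, the cytosolic isocitrate dehydrogenase, had 463 units at day 2, against 205 at day 0, and was the only one of 21 TCA cycle and linked enzymes past 2-fold. It stood at 1258 and 1527 units at days 4 and 6. Among 31 glutathione, thioredoxin and redox genes only SLC7A11 passed 2-fold, and GSR, which regenerates glutathione, had 1341 units at day 2, against 888 at day 0. Cytoplasmic ribosomal proteins were a case of a small and uniform difference: 60 of 62 lay above 0, with a median log2 ratio of 0.17 and quartiles of 0.09 and 0.21, but the median was 0.01 both in unscaled values and after quantile normalization. These genes are the brightest of the lists, with a median of 8041 units. Other genes of like brightness were displaced to nearly the same extent: 75 genes outside the list with a mean of at least 5000 units had a median of 0.14, and 57 ribosomal protein genes of that brightness had 0.18. Translation factors had a median of 0.09 over 48 genes, which was -0.07 in unscaled values, with 0 past 2-fold.

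B cell identity and antigen receptor genes had the lowest median at day 2 of the lists with at least 10 genes analysed. Of 52 listed genes 41 were on the array and 35 were analysed, and all 35 were above background on both days. At day 2, 5 of them were 2-fold lower and 0 higher (2.97% and 2.42% over all genes). At 1.5-fold 12 were lower (against 9.46% of all genes), and 9 of 35 lay above 0, where 48.5% of all genes did. The median log2 ratio was -0.36. In bulk RNA of a culture, fewer cells of a type and less RNA per cell cannot be told apart.

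Transcription factors made up 4 of the 5. SPI1, which drives early B and myeloid development, had 195 units at day 2, against 438 at day 0, and its second probe set had 175 units at day 2, against 449 at day 0. IRF8, its partner on many promoters, had 351 units at day 2, against 758 at day 0. BCL6, a repressor that acts in germinal centre B cells, had 107 units at day 2, against 242 at day 0, and its second probe set gave a smaller log2 ratio of -0.49. TCF4, an E protein, was dim, with 33.1 units at day 2 and 81.0 at day 0. The fifth, INPP5D, the SHIP1 phosphatase that restrains receptor signalling, had 83.4 units at day 2, against 177 at day 0, while its second probe set stood at -0.12.

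Members short of 2-fold, again chosen after their values were seen, ran in both directions. The receptor kinase BTK had 651 units at day 2, against 1167 at day 0, and SYK had 840 units at day 2, against 1332 at day 0. PAX5, the factor that commits cells to the B lineage, had 46.9 units at day 2, against 84.9 at day 0. IRF4 and XBP1, factors known for their role in plasma cells, had positive ratios of 0.35 and 0.41, with 4922 and 2994 units at day 2, against 3858 and 2254 at day 0. The second probe set of XBP1 gave 0.06. In the same list PRDM1 stood at 0.04, JCHAIN at -0.22 and POU2AF1 at -0.36. Among second probe sets 12 of 18 lay below 0 (against 46.4% of all second probe sets), with a median of -0.28. The class median was -0.56 at day 4 and -1.01 at day 6, and 23 of 35 genes lay below 0 on all of days 2, 4 and 6 (28.9% of all genes did). SPI1 fell in steps, to 56.7 units at day 4 and 24.2 at day 6, the last one below background, whereas INPP5D stayed at 82.5 and 77.8 units.

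**Figure D2:**
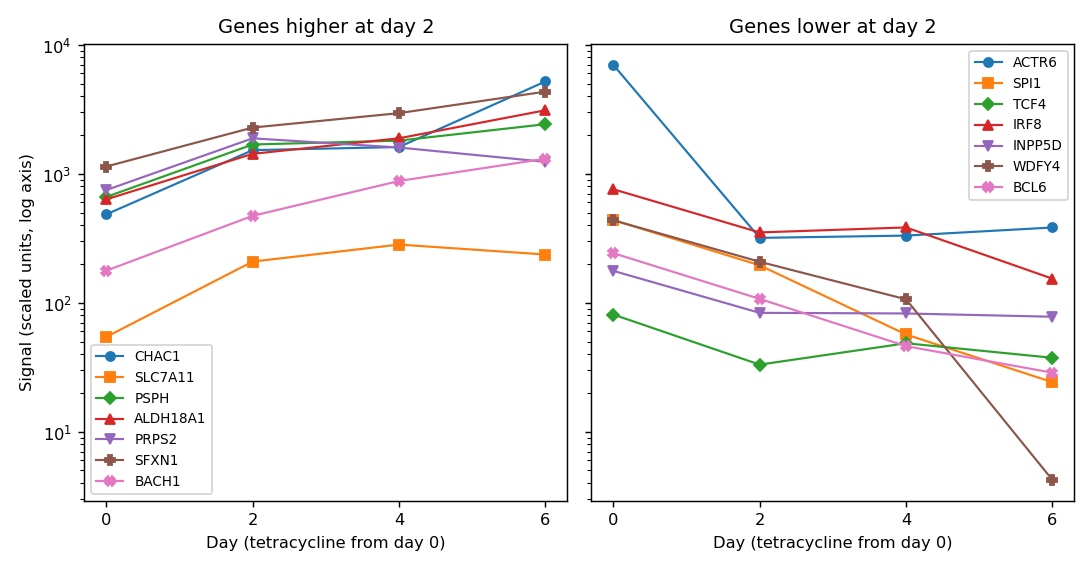
Scaled signal on a log axis against day for 7 genes higher and 7 genes lower at day 2, 1 array per day and 1 line per gene. CHAC1 and BACH1 climbed further by day 6, PRPS2 was highest at day 2, ACTR6 reached its low level by day 2, and SPI1, BCL6 and WDFY4 went on falling at days 4 and 6.

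Several other immune and growth control classes had negative medians with few genes past the threshold, while 17 immunoglobulin gene conversion genes had a median of 0.03 with 0 past it. Of 9 antigen presentation genes, WDFY4, which is needed for cross-presentation in mouse dendritic cells, was the only one 2-fold lower, with 208 units at day 2, against 436 at day 0, and 192 units against 414 on its second probe set. CD74, which encodes the invariant chain, had 1934 units at day 2, against 3110 at day 0. Interferon and innate response genes had a median of -0.25 over 13 genes with 0 past 2-fold, and the list was dim, with a median signal of 113 units. The RNA-sensing receptor TLR7 had 79.6 units at day 2, against 148 at day 0, and was below background at day 4.

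Targets of p53 and growth arrest genes had a median of -0.32, with 5 of 22 above 0 and 2 past 2-fold. CCNG2, a cyclin linked to cell cycle exit, had 308 units at day 2, against 842 at day 0, with 117 against 215 on its second probe set. MDM4, an inhibitor of p53, was 2.07-fold lower at 30.5 units, against 63.2 at day 0. The 11 second probe sets of this class had a median of -0.06, with 7 of them below 0 (against 46.4% of all second probe sets). Immediate early genes had a median of -0.22 over 15 genes, DUSP5 being the only one past 2-fold with 32.8 units at day 2, against 85.2 at day 0. In the MYC network 1 of 17 genes was past 2-fold, the glucose-sensing factor MLXIP with 159 units at day 2, against 360 at day 0. Its second probe set gave 0.32, the opposite direction. When the probe sets of a gene were averaged, MLXIP was at -0.43 and the class median of -0.20 became 0.0012.

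Cholesterol synthesis and SREBP genes had 0 of 28 past 2-fold but 22 at or below 0, with a median of -0.20. Among their 14 second probe sets 7 lay above 0 and 7 below, with a median of -0.11. FDPS, which makes farnesyl diphosphate, had 981 units at day 2, against 1669 at day 0. The class median was -0.20 at day 4 and 0.10 at day 6. The survival gene BCL2 was 2.18-fold higher on the probe set used, at 119 units at day 2 and 54.5 at day 0, but its second probe set gave 0.07, and the 23 BCL2 family and apoptosis genes had a median of -0.09.

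Most nuclear and chromatin classes had medians within 0.1 of 0. Among 20 genes of the SRCAP and NuA4 complexes and H2A.Z, ACTR6 was the only one past 2-fold, and the median was 0.01. Actin-related proteins lay further off, with a median of -0.21 over 10 genes, 8 of them below 0, and ACTRT2 the only one other than ACTR6 past 2-fold, at 25.4 units at day 2 against 51.6 at day 0. Medians were -0.08 for 44 ATP-dependent remodelers, 0.06 for 28 histones and histone chaperones, -0.07 for 24 cohesin, condensin and architecture genes, and 0.08 for 53 nuclear pore and lamina genes. KDM5B, a demethylase of histone H3 lysine 4, was 3.33-fold higher, with 88.1 units at day 2, against 26.5 at day 0, and was the single one past 2-fold of 59 histone acetylation and methylation enzymes. Of 28 heterochromatin, Polycomb and DNA methylation genes, with a median of 0.04, CBX2, a Polycomb subunit, was at least 2.84-fold lower, with its day 2 signal below background. TET3, an enzyme that oxidises methylcytosine, was past 2-fold higher against the floor, but only at least 1.59-fold against background. The TET3 probe set reached the filter only through the later arrays. SYNE1, a nesprin of the nuclear envelope, was 2.04-fold lower at 29.4 units, against 60.1 at day 0.

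Cell division and general gene expression classes also stayed near the median gene. DNA replication had 0 of 54 genes past 2-fold and a median of -0.03, and G2 and mitosis 1 of 46 with a median of 0.01. In DNA damage and repair 2 of 60 genes were past 2-fold, FANCB lower and DCLRE1B higher, with a median of -0.04. The second probe set of FANCB gave a log2 ratio of -0.11. The splicing factors, nuclear transcription machinery, ribosome biogenesis and proteasome lists had medians of -0.01, -0.06, 0.01 and -0.03. PSMB5, a catalytic proteasome subunit, was the only one of 39 proteasome genes past 2-fold, with 16.7 units at day 2, below background, against 97.1 at day 0, at least 3.88-fold lower. It stood at 94.2 units at day 4, close to day 0, and its second probe set had 53.6 units at day 2, against 87.1 at day 0. In all, 20 of the 53 lists had 0 genes past 2-fold, and 35 had a median within 0.1 of 0.

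**Figure D3:**
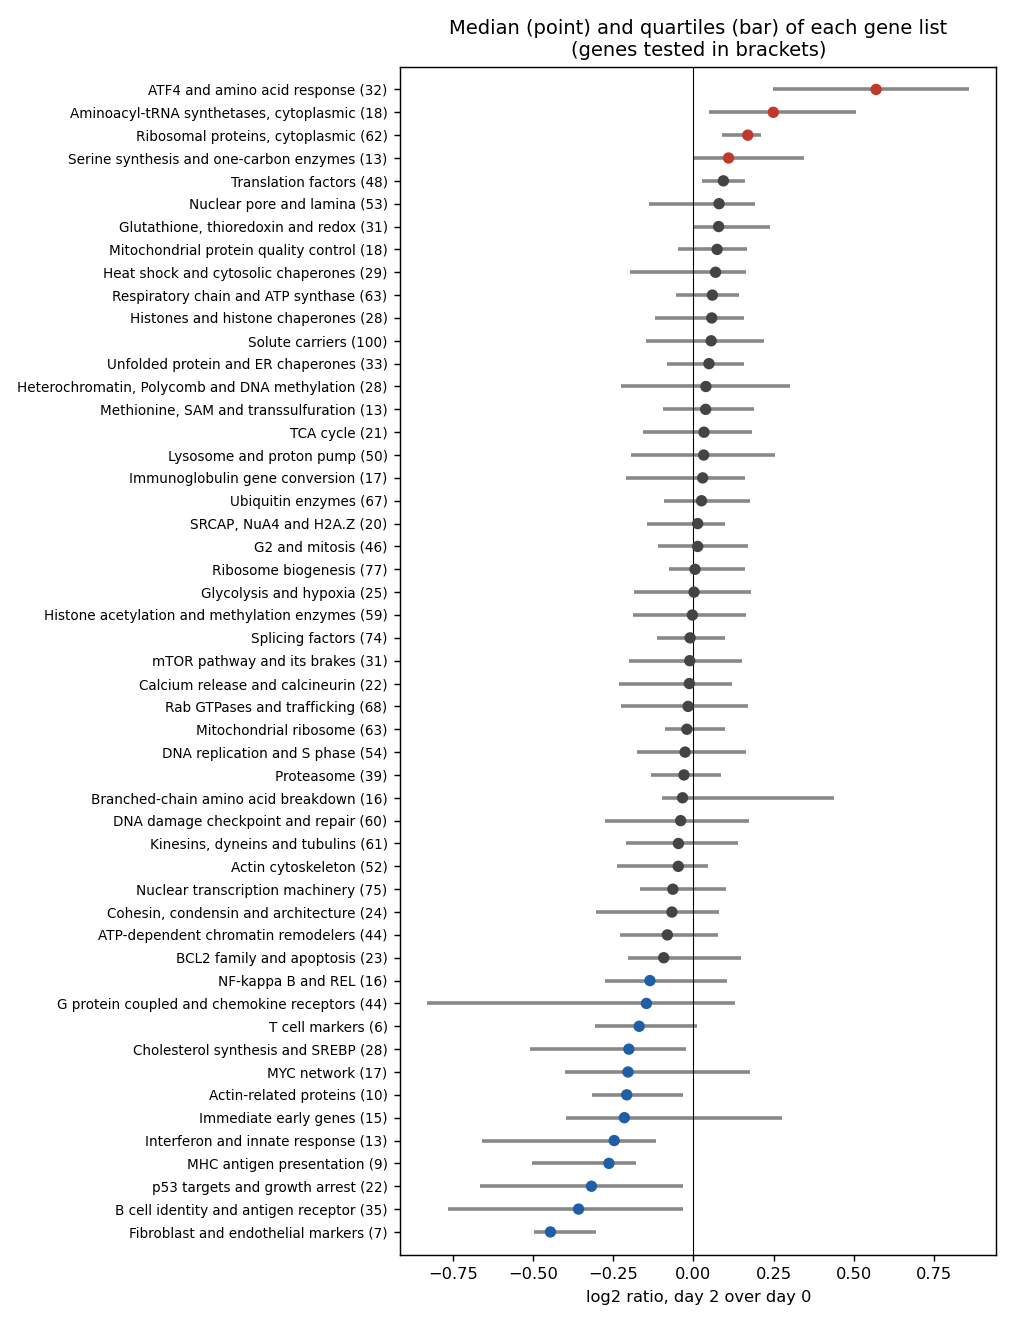
Median (point) and quartiles (bar) of the log2 ratio of day 2 over day 0 for each gene list with at least 5 genes analysed, with the number of genes in brackets; red points lie above 0.1 and blue points below -0.1. The ATF4 list is at the top with 0.57, the B cell list near the bottom with -0.36, and most lists sit around 0.

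Membrane receptors differed widely between genes, in the range where the arrays are least precise. Of 44 genes for G protein coupled receptors, chemokine receptors and their G proteins, 4 were 2-fold higher and 8 lower. All genes had 5.38% either way, and the dimmest of the 4 brightness groups had 16.6%. The list's median signal was 64.9 units, and only 34 were above background on both days. ADORA2A and LPAR2, with bounds of 1.98- and 1.75-fold, are among the 12 but do not reach 2-fold against background. GNA11, a G protein subunit, had 43.7 units at day 2, against 111 at day 0. CCR6 had 142 units at day 2, against 53.7 at day 0, and GPR183 had 120 units at day 2, against 51.3 at day 0. Both are chemotactic receptors of B cells, and both were higher still at day 4 (277 and 264 units). GPR157 was lower, with 103 units at day 2, against 246 at day 0, and CX3CR1 was at least 4.47-fold higher, from below background at day 0, but was below background again at day 6. Also among the 8 lower ones were the somatostatin receptors SSTR1, SSTR2 and SSTR3, of which SSTR1 and SSTR3 were below background at day 2. Among 100 solute carriers 3 were higher and 5 lower (2.42% and 2.97% over all genes), with a median of 0.06. SLC38A9, the arginine sensor of the lysosome, had 167 units at day 2, against 74.5 at day 0, and the other higher ones were SLC7A11 and SLC38A6, the last with a second probe set at -0.01. The lower ones were SLC30A2, SLC25A33 and SLC7A7, below background at day 2 with bounds of 3.32-, 3.07- and 2.82-fold, and SLC39A13 and SLC35A3, 2.11- and 2.05-fold lower, with the second probe set of SLC39A13 at 0.10.

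Markers of other cell types were dim, with the exception of CD3D, a chain of the T cell receptor complex, which had 2020 units at day 2 and 2382 at day 0. Of 21 T cell markers 6 were analysed, and their summed signal was 2370 units at day 2 and 2742 at day 0. The summed signals of 3 macrophage and granulocyte, 4 erythroid and thrombocyte, and 7 fibroblast and endothelial markers were 103, 174 and 246 units at day 2, against 151, 204 and 246 at day 0. CEBPA and MARCO, of the macrophage list, were past 2-fold on the lower side, but both were below background at day 2, which leaves bounds of at least 2.11- and 1.66-fold. LUM, which encodes the matrix protein lumican, was the only one higher, with 92.6 units at day 2, against 37.2 at day 0, and 344 and 1069 units at days 4 and 6. Their part in the other results was not tested.

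The gene with the highest ratio among those above background on both days was NTNG2, a membrane-anchored netrin, with 126 units at day 2, against 28.9 at day 0 (4.36-fold), and 197 and 309 units at days 4 and 6. OSTN, a secreted peptide, had 165 units at day 2, against 49.1 at day 0, and 296 and 585 units later. RAB3IP, an activator of Rab8, had 371 units at day 2, against 123 at day 0. ENHO, JADE3, WBP2NL and EAF1 were 3.77-, 3.37-, 3.30- and 3.04-fold higher, all from day 0 signals under 40 units. The second probe set of JADE3 had 74.8 units at day 2, against 53.3 at day 0, a log2 ratio of 0.49. PACS2 was 4.20-fold higher on the probe set used, with 133 units at day 2, against 31.7 at day 0, while its second probe set was lower, with 41.7 units at day 2, against 106 at day 0. Lower bounds were largest for CX3CR1, TSC2, a brake on mTOR (at least 3.87-fold, below background at day 4 and at 101 units at day 6), BCKDHA, CALML3 and CTXN1. The TSC2 probe set reached the filter only through its day 6 signal.

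Bright genes past 2-fold were few. PRPS2, which makes phosphoribosyl pyrophosphate for nucleotide synthesis, had 1882 units at day 2, against 747 at day 0, and 1699 against 774 on its second probe set. Unlike CHAC1 it was highest at day 2, with 1597 and 1237 units at days 4 and 6. SFXN1, the mitochondrial serine carrier, had 2280 units at day 2, against 1137 at day 0, and went on to 2951 and 4334 units. FAM208B had 1359 units at day 2, against 597 at day 0, but 543 against 609 on its second probe set.

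Among lower genes other than ACTR6, the largest measured differences were in KCNA2, a potassium channel (25.3 units at day 2 and 98.3 at day 0), ABLIM1, an actin-binding LIM protein (38.7 and 144 units), and FAM110D (63.8 and 235 units). KCNA2 was below background at days 4 and 6. The second probe set of ABLIM1 gave 0.33, the opposite direction. EXOSC6, a subunit of the RNA exosome, was 3.47-fold lower, with 32.7 units at day 2, against 113 at day 0. It had 99.7 units at day 4, close to day 0, and was below background at day 6. VDR, the vitamin D receptor, was 2.95-fold lower, with 32.8 units at day 2, against 96.8 at day 0. ANKRD9L, NRROS, NBL1, PCMTD2, UFC1 and WDR63 were between 2.78- and 3.16-fold lower, with day 2 signals of at most 36.9 units. The largest lower bounds belonged to PSMB5, TBX1 (at least 3.52-fold), TMEM136-1, DZIP1 and SSTR3, and TBX1 had 127 units at day 4, above its 88.0 at day 0. The brightest of the lower genes were TMED8 (448 units at day 2 and 1199 at day 0), TRAPPC10 (458 and 978), RBBP6 (396 and 852) and IRAK2 (358 and 756). Their second probe sets gave log2 ratios of -0.84, -0.32, -0.25 and -0.70. Averaged over all probe sets of a gene, TRAPPC10 was at -0.40, RBBP6 at -0.68 and IRAK2 at -0.31. A further IRAK2 probe set therefore went the other way.

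Second probe sets measure the same 2 RNA samples with other probes. Of 3577 genes with a second probe set above the filter, 58.5% had both ratios on the same side of 0. The SD of the difference between the 2 log2 ratios of a gene, divided by the square root of 2, was 0.42. This value was 0.63 in the dimmest 25% of second probe sets and 0.19 in the brightest 25%. Among the 49 higher genes with a second probe set, it lay above 0 in 33 (67.3%, against 53.4% of all second probe sets). It was itself 2-fold higher in 8 (4.08% of all) and 2-fold lower in 3 (3.44% of all). Among the 56 lower genes it lay below 0 in 46 (82.1%, against 46.4% of all), and it was 2-fold lower in 11 and 2-fold higher in 1. The median ratio of the 49 was 1.25 on the probe set used and 0.21 on the second, and that of the 56 was -1.19 and -0.43. The gap between first and second includes that the first was the one selected for passing 2-fold.

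**Figure D4:**
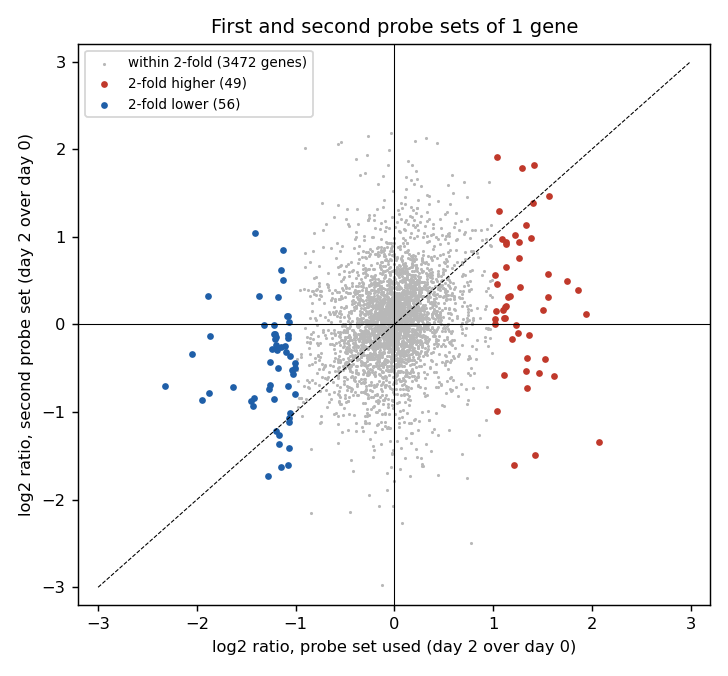
Log2 ratio of day 2 over day 0 on the second probe set against that on the probe set used, 1 point per gene, for 3577 genes with 2 or more probe sets, with the dashed line marking equal ratios. Red points are the 49 genes 2-fold higher and blue points the 56 genes 2-fold lower on the probe set used; most lie nearer to 0 on the second one, and ACTR6 lies outside the axes.

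The higher genes kept their difference on the arrays of days 4 and 6 more often than the lower genes. The margin depends on the scaling and on the filter. The filter uses the mean of all 4 arrays, so a dim gene that stays high passes more easily than one that stays low. All 3 ratios have the same day 0 array beneath them, so agreement between days is a description only. Of the 194 higher genes 115 were 2-fold higher at day 4, 137 at day 6 and 89 on both, and 174 lay above 0 on both. Over all genes, 5.77% were 2-fold higher at day 4, 8.48% at day 6 and 3.45% on both. Of the 238 lower genes 71 were 2-fold lower at day 4, 71 at day 6 and 33 on both, while 145 lay below 0 on both and 24 above 0 on both. Over all genes, 5.12% were 2-fold lower at day 4, 8.35% at day 6 and 2.28% on both. The shares of all genes above 0 or below 0 on both later days were not counted. These counts did not require later signals to be above background, which was 30.3 units at day 4 and 45.5 at day 6. Of the kept probe sets, 979 lay under it at day 4 and 2407 at day 6, against 799 at day 2. Median log2 ratios at days 2, 4 and 6 were 1.26, 1.196 and 1.32 for the higher genes, and -1.23, -0.56 and -0.50 for the lower genes. Restricted to genes above background at day 2 and day 0, the lower genes had medians of -1.17, -0.79 and -0.89, with 29 of 133 past 2-fold on all 3 days. In unscaled values 51 of 147 higher genes (34.7%) and 111 of 403 lower genes (27.5%) were 2-fold the same way at days 4 and 6, against 45.9% and 13.9% with scaling. With the filter on days 2 and 0 alone the shares were 36.6% (78 of 213) and 24.4% (69 of 283). With no filter they were 31.5% (95 of 302) and 23.4% (103 of 440).

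Back near the day 0 level were 13 of the lower genes and 1 of the higher ones, whose signals at days 4 and 6 were both within 1.2-fold of day 0. The share of all genes this near day 0 on both days was not counted, so these counts have no comparison. Restricted to genes above background at day 2 and day 0, these were 3 of 133 lower genes and 0 of 110 higher ones. PHKA2, a regulatory subunit of phosphorylase kinase, had 38.2 units at day 2, against 84.5 at day 0, and 73.6 and 76.2 units later. Its second probe set was lower at day 2 as well, with 26.4 units against 81.8 at day 0, but did not come back, at 55.3 and 39.1 units at days 4 and 6. THAP1, a zinc finger factor, had 45.4 units at day 2, against 98.4 at day 0, and 97.1 and 85.0 units later.

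**Figure D5:**
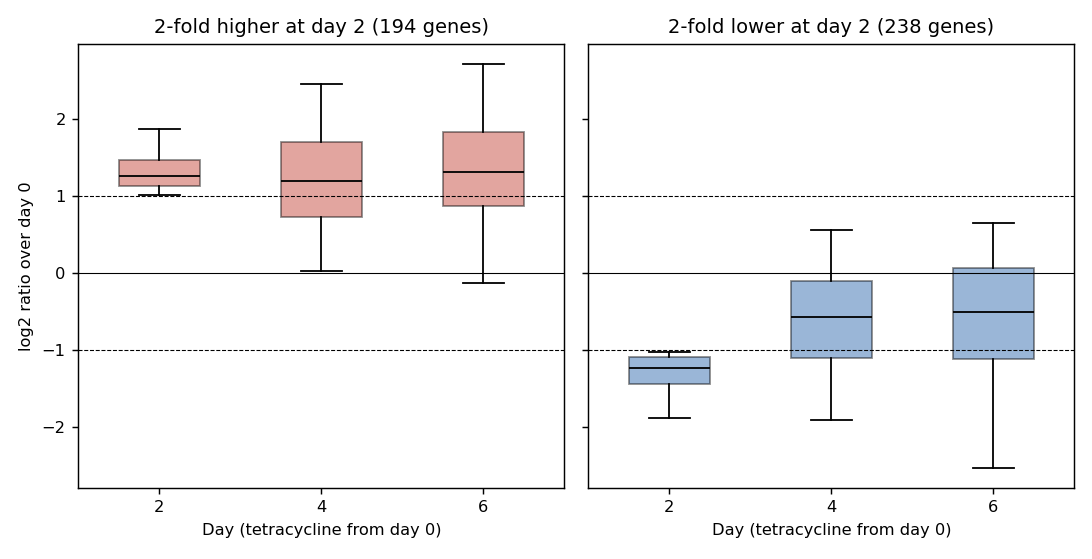
Log2 ratios over day 0 at days 2, 4 and 6 of the 194 genes 2-fold higher and the 238 genes 2-fold lower at day 2, with boxes at the quartiles, lines at the medians and whiskers at the 5th and 95th percentiles. The higher genes keep a median near 1.26 on the later arrays, while the median of the lower genes is nearer to 0, at -0.56 and -0.50.

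A second probe set past 2-fold in the same direction was found for BACH1, FAM65B, MEF2C, PIBF1, PIGN, PRPS2, UTRN and ZC3H7B among higher genes. BACH1, a heme-regulated repressor of antioxidant genes, had 471 units at day 2, against 177 at day 0, and 113 against 32.1 on its second probe set, and it reached 879 and 1308 units at days 4 and 6. Not every BACH1 probe set that passed the filter was 2-fold higher at day 2. FAM65B, an inhibitor of RhoA, had 232 units at day 2, against 111 at day 0. UTRN, the dystrophin relative utrophin, had 83.0 units at day 2, against 31.3 at day 0, and 73.8 against 28.2 on the second. PIGN, an enzyme of GPI anchor synthesis, and PIBF1, a centrosomal protein, were 2.44- and 2.95-fold higher. These 5 were also 2-fold higher at days 4 and 6. MEF2C, a transcription factor of muscle and lymphoid cells, had 87.7 units at day 2, against 37.7 at day 0, 31.7 units at day 4 and 88.0 at day 6, and its second probe set was below background at day 6.

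Among lower genes a second probe set past 2-fold was found for ACTR6, ANKRD11, NATD1, PHKA2, RASGEF1A, RASGRP3, SPI1, TMEM132B, UNC5B, WDFY4 and 1 gene known only by a locus number. Both probe sets of RASGEF1A and the second one of TMEM132B were below background at day 2, with bounds of 1.66-, 1.57- and 1.90-fold that do not reach 2-fold. NATD1 had 110 units at day 2, against 268 at day 0, and 87.6 against 291 on its second probe set. RASGRP3, an activator of Ras downstream of the B cell receptor, had 105 units at day 2, against 219 at day 0, and 183 and 44.2 units at days 4 and 6. ANKRD11, a chromatin regulator, had 70.9 units at day 2, against 150 at day 0, and stood at 105 and 133 units later. UNC5B, a netrin receptor, had 35.4 units at day 2, against 79.4 at day 0. ACTR6, NATD1, SPI1, TMEM132B and WDFY4 were 2-fold lower at days 4 and 6 too, and SPI1 and WDFY4 ended below background at day 6. TMEM132B was below background on both later days, at 22.8 and 15.7 units, so its later calls rest on the floor. Its second probe set had 43.7 units at day 4, against 47.4 at day 0.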

How the data were processed

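The deposited values are linear intensities, 1 for each probe set on each array, which the authors obtained with GeneChip Operating Software 1.3 (per the series' design text). Which signal algorithm and scaling they used is not stated in the sources used here.

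Of 38535 probe sets, 96 controls were left out and 16658 were kept, those whose mean log2 value over the 4 arrays reached that of the median signal (29.1). Arrays were scaled to the same median over these, by 0.859, 0.962, 1.02 and 1.19 at days 0, 2, 4 and 6. Signals under the 40th percentile (19.4) were raised to it before ratios were taken. Background was the 95th percentile of 42 unspiked controls, 24.6, 25.02, 30.3 and 45.5 units. Probe sets with 1 symbol in the platform annotation, updated through RefSeq gene numbers, gave 8026 genes, each by its brightest probe set. Brightest was by mean log2 value over the 4 arrays, so a probe set high at days 2 to 6 was chosen more easily. The number of arrays limits the precision.

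The comparison, the 53 gene lists and the members named were chosen with earlier results of these data known. Genes named are every ACTR6 probe set, the 12 highest and lowest measured ratios, the 5 largest bounds each way, the 5 brightest 2-fold genes each way, genes with agreeing probe sets, genes persisting or returning at days 4 and 6, and in each list the 3 largest ratios and all past 2-fold, or some of these. Others are marked as chosen after their values were seen. Scripts used Python 3.11.15 with numpy 2.4.6 and pandas 2.3.3, and the ratio step was tested on simulated data. Alternatives changed the scaling, filter, floor, threshold and probe set summary. Promoter motifs were not searched, and no sequences were used here.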

Additional observations from a re-analysis of the deposited data

How the results depend on the processing

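With 1 array per day no result has a replicate, and no paired analysis was possible because each day is 1 array. ACTR6 stayed past 2-fold lower under each of the 12 other scalings, filters, floors and probe set summaries. The counts did not stay: 194 higher and 238 lower genes became 302 and 440 with no filter, 56 and 21 with a filter at the 75th percentile, 77 and 81 with a floor at the 60th percentile, 50 and 58 with a pseudocount in place of the floor, 469 and 448 over 13499 single probe sets, 604 and 759 at 1.5-fold, 31 and 39 at 3-fold and 110 and 133 with both signals above background. Without scaling 403 genes were lower. Genes also 2-fold higher at days 4 and 6 numbered 89, and 51 without scaling, 35, 37, 23 and 135 with the stricter filter, higher floor, pseudocount and no floor, 209 over single probe sets, 318 and 13 at 1.5- and 3-fold and 53 above background. The 33 lower ones became 111 without scaling, 18 with spike-in scaling, 103 with no filter, 9 with the stricter filter, 69 with a filter on days 2 and 0 alone, 12 with a pseudocount, 21 with averaged probe sets, 54 over single probe sets, and 226 and 4 at 1.5- and 3-fold. Higher genes whose second probe set lay above 0 were 33 of 49 (67.3%), and 17 of 33 without scaling, 57 of 177 (32.2%) with no filter, 13 of 15 and 21 of 30 with the stricter filter and higher floor, 11 of 14 with a pseudocount, and 129 of 191 and 3 of 5 at 1.5- and 3-fold. Lower ones were 46 of 56 (82.1%), and 81 of 97 without scaling, 30 of 39 after quantile normalization, 112 of 274 (40.9%) with no filter, 7 of 7 and 29 of 40 with the stricter filter and higher floor, 18 of 21 with a pseudocount, and 142 of 217 and 7 of 8 at 1.5- and 3-fold. A second probe set under the floor on both arrays has a ratio of 0 and counts on neither side, so the low shares with no filter include such ties. The number of these ties was not counted. The ATF4 median of 0.57 was 0.41 without scaling and 0.65 when each gene took the median of its probe sets. The B cell median of -0.36 was -0.52 and -0.27 in the same settings, -0.26 with no filter and -0.29 with the stricter one. Fewer or more genes analysed follow from the filters by construction, and other causes were not tested. Of 111 genes considered for naming that were past 2-fold, 58 dropped under it with a pseudocount and 47 with the higher floor. Those that dropped were 15 with averaged probe sets, 14 with the median of a gene's probe sets, 13 after quantile normalization and 10 without scaling. Among them VPS29 alone changed sign, to -0.20 with the mean and with the median of its probe sets. With the filter on days 2 and 0 alone, 103 of the 111 were still analysed, and 1 of these, STC2, dropped under 2-fold. With the stricter filter 32 were still analysed. Of 35 list medians within 0.1 of 0, 31 took the other sign under at least 1 setting. Of the 18 others 5 did. Erythroid and thrombocyte markers had 0.18 with the mean or the median of a gene's probe sets. With the stricter filter fibroblast and endothelial markers (1.37, 1 gene), receptors (0.024) and the MYC network (0.052) changed sign. The MYC network also did with averaged probe sets (0.0012) and with their median (0.058), and serine and one-carbon enzymes did without scaling (-0.053). At days 4 and 6 spike-in scaling put the median gene at 0.30 and 0.16. The promoter motif count was not run. Low signal limits the dimmest genes most.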

Other observations

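Probe sets that the annotation used here does not tie to a single gene had ratios taken as for the named ones. They were counted singly, whereas each named gene was counted by its brightest probe set. Of 3159 such probe sets that passed the filter on dim values, 126 were 2-fold higher at day 2 (3.99%) and 200 were 2-fold lower (6.33%). Probe sets of named genes, also counted singly, gave 469 higher and 448 lower at day 2 of 13499. The groups were not matched for brightness. Among those of the 3159 above background, the one with the highest ratio had 265 units at day 2, against 65.8 at day 0. It had 166 and 190 units at days 4 and 6. The one with the lowest had 32.7 units at day 2, against 115.6 at day 0, and 82.6 and 73.0 units at days 4 and 6.

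The 53 gene lists together covered 1803 of the genes analysed, of which 30 were 2-fold higher at day 2 and 37 lower. Those are smaller shares than the 2.42% higher and 2.97% lower over all 8026 genes. The listed genes were not matched for brightness, and the share past 2-fold was 16.6% in the dimmest group and 0.448% in the brightest. The other 164 higher and 201 lower genes belonged to no list.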
